A study of Homo sapiens with 2 samples.

Results

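The genes described here are 5 transcription factors that drive epithelial-mesenchymal transition (SNAI1, SNAI2, TWIST1, ZEB1 and ZEB2), the cadherins CDH1 and CDH2, and the epithelial adhesion gene EPCAM. They were chosen by name: all 8 symbols had a row in the count tables of both libraries, among 36601 genes. Levels and cells with a UMI (a uniquely tagged RNA molecule) were read in cells with at least 1000 genes and a mitochondrial share below 20%, by library and by mitochondrial class, and in cells holding UMIs of PAX6, CER1 or IL24.

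Epithelial-mesenchymal transition is the programme by which a sheet of polarised epithelial cells turns into loose, motile cells, as at gastrulation and in neural crest. SNAI1, SNAI2, ZEB1 and ZEB2 encode zinc finger proteins that bind E-box motifs and repress CDH1, and TWIST1 encodes a helix-loop-helix factor of the same programme. CDH1 encodes E-cadherin, the calcium-dependent adhesion protein of epithelia and of pluripotent cells, and EPCAM encodes an adhesion protein carried by both. CDH2 encodes N-cadherin, which is typical of neural and mesenchymal cells, and the exchange of CDH1 for CDH2 is the textbook cadherin switch.

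The data were 2 single-cell RNA libraries, 1 per group, of H9, an established human embryonic stem cell line kept in the naive state in RSeT medium. One group was transfected with ASO-L1, an oligonucleotide antisense to LINE1 RNA, and the other with SO-L1, the sense control, each at 25 nM with a fluorescein label. Cells of both groups also received 10 nM DZNep, an inhibitor of histone methylation, and 5 nM TSA, a histone deacetylase inhibitor, until collection. For the first 24 hours both also had 0.7 µM trans-ISRIB, 5 µM emricasan and 10 µM Y-27632, added for transfection and survival. At 48 hours 100000 dye-positive cells per group were sorted and loaded on the 10x Genomics 3′ v3 assay, so cells without dye were not sampled. The comparison bears on how cell state differs with the LINE1 oligonucleotide when both groups carry these drugs. With 1 library per group no p-value could be given, and every interval below is a 95% interval for counting error only.

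After filtering, 9084 of 11659 barcodes remained in the ASO-L1 library and 6553 of 13070 in the SO-L1 library, with medians of 50482 and 39100 non-mitochondrial UMIs per cell. Cells with under 2% mitochondrial UMIs were 27.9% of kept ASO-L1 cells (2531) and 28.3% of kept SO-L1 cells (1857). The other 6553 ASO-L1 cells and 4696 SO-L1 cells held 2% or more. The libraries shared 6105 barcodes, of which 274 were kept in both, 5034 were kept in ASO-L1 only and 788 were kept in SO-L1 only. Among the kept cells, 3 ASO-L1 and 253 SO-L1 cells had under 10% of the UMIs that the same barcode had in the other library, and they held 0.00112% of ASO-L1 and 0.170% of SO-L1 UMIs. Without these shallow copies every one of the 248 member values that could be recomputed stayed inside its interval. Levels are given in CPM, the UMIs of a gene summed over cells and scaled to the summed non-mitochondrial UMIs of the same cells. The summed level of 8 pluripotency genes was 3179 CPM in ASO-L1 cells and 3672 in SO-L1 cells, so the pluripotency genes of a stem cell line were present in both. Below 2% it was 1780 in ASO-L1 and 2868 in SO-L1, the class with the wider library ratio for 4 of the 5 repressors. Markers of the 8-cell state (5 genes) summed to 108 in ASO-L1 and 13.1 in SO-L1, and below 2% to 334 and 50.2. Naive markers (7 genes) summed to 774 and 390, mesendoderm markers (10 genes) to 87.6 and 17.0, and neural markers (10 genes) to 191 and 163 in ASO-L1 and SO-L1. Neural crest markers (7 genes) summed to 53.1 in ASO-L1 and 56.6 in SO-L1, and below 2% to 41.6 and 65.9. The part of these in the differences below was not tested. Fibroblast markers (9 genes) summed to 160 in ASO-L1 and 83.3 in SO-L1, with TAGLN at 69.9 and 11.8 and COL1A2 at 20 and 24. Below 2% the fibroblast sum was 285 in ASO-L1 and 118 in SO-L1. LUM and DCN, 2 of the 9, were near 0 in both libraries, with 3 and 6 UMIs in ASO-L1 and 0 and 2 in SO-L1. Whether fibroblast-like cells were present was not tested.

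The 5 repressor genes were all higher in ASO-L1 cells, together with EPCAM, while CDH1 was lower and CDH2 close to level. A gene was called where the ratio was at least 1.5-fold with an interval that excluded 1 and at least 50 UMIs lay behind it. Over all kept cells 6 of the 8 genes were called higher in ASO-L1 and 0 lower. Among all 24917 genes with at least 50 UMIs, 16.3% were called higher and 18.4% lower by the same rule. ZEB2, the smallest of the called repressor ratios, was 1.47-fold higher, below the call, when cells were thinned to 8000 UMIs.

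**Figure D1:**
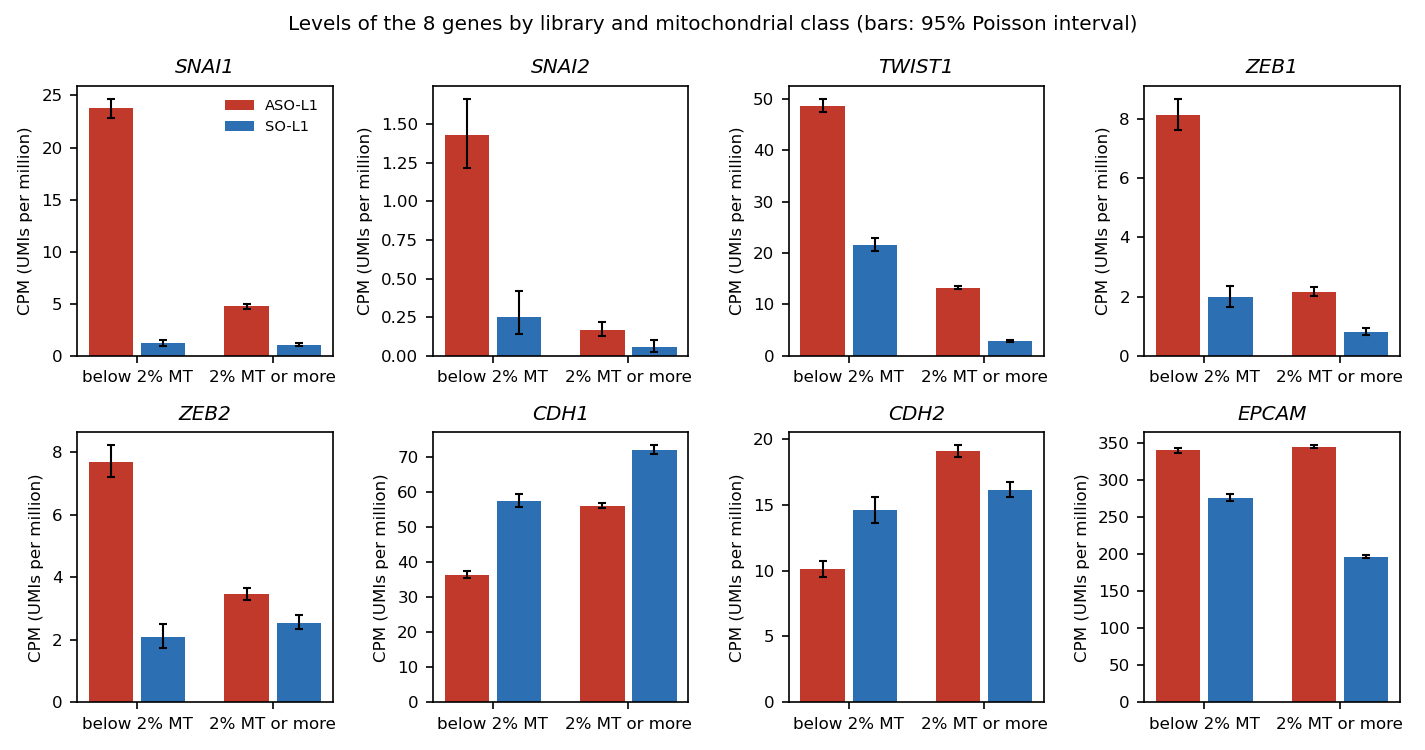
Level of each gene in CPM (linear axis from 0) by mitochondrial class and library, ASO-L1 left of SO-L1; bars are summed over cells and whiskers are 95% Poisson intervals. SNAI1 stands at 23.8 in ASO-L1 cells below 2% against 1.25 in SO-L1 cells below 2%, whereas CDH1 is lower in ASO-L1 in both classes.

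SNAI1 (ENSG00000124216, chr20:49982999-49988886, plus strand, GENCODE 29 on GRCh38), which drives the transition at gastrulation, gave the widest gap over kept cells and below 2%. It had 4414 UMIs in ASO-L1 cells and 285 in SO-L1 cells, or 9.39 and 1.12 CPM, a ratio of 8.36 (7.41 to 9.45). Below 2% the level was 23.8 in ASO-L1 and 1.25 in SO-L1 (ratio 19.0, 15.1 to 24.2), and at 2% or more it was 4.77 and 1.08 (ratio 4.4, 3.81 to 5.10). The order of the 4 groups was therefore ASO-L1 below 2%, ASO-L1 at 2% or more, then the SO-L1 classes, which did not differ beyond counting error (ratio 1.16, 0.875 to 1.51). SNAI1 in ASO-L1 was concentrated in few cells: 50% of its UMIs came from 444 of the 2178 cells with a UMI. The highest single cell had 28. In SO-L1, with 285 UMIs in 254 cells, the same share came from 112 cells and the highest had 7. Most of those SO-L1 cells held a single UMI, so the libraries are not alike in this measure. Nor was the trait particular to SNAI1. In ASO-L1, 50% of UMIs came from 389 of 2605 cells for TWIST1, 245 of 964 for ZEB1 and 224 of 1052 for ZEB2.

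The share of cells with a UMI differed in the same direction. After each cell was thinned to 8000 non-mitochondrial UMIs, which left out 529 shallower ASO-L1 and 654 SO-L1 cells, a SNAI1 UMI was found in 7.07% of ASO-L1 cells (6.54% to 7.64%) and 1.08% of SO-L1 cells (0.836% to 1.38%). Unthinned, the shares were 24.0% and 3.88%. Below 2% the thinned shares were 16.7% in ASO-L1 and 1.54% in SO-L1. No cell class in these cultures is known to lack any of the 8 genes, so no share of background RNA could be set beside these values. In the barcodes with under 1000 genes that were left out, SNAI1 stood at 10.3 CPM in ASO-L1 (15 UMIs in 2045 barcodes) and 5.56 in SO-L1 (26 UMIs in 6045 barcodes). Of those SO-L1 barcodes 5032 were also kept cells of the ASO-L1 library, and they held all 26 UMIs, while the other 1013 held 0. All UMIs behind the SO-L1 value thus lay in barcodes that were kept cells of ASO-L1. The background of SO-L1 was not measured, and how the shared barcodes arose was not tested.

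SNAI2 (ENSG00000019549, chr8:48917604-48921740, minus strand), the SNAI1 paralogue known from neural crest, was rare. It had 223 UMIs in ASO-L1 cells and 26 in SO-L1 cells, or 0.474 and 0.102 CPM (ratio 4.63, 3.08 to 7.24). The ratio was 5.62 (3.31 to 10.3) below 2%, on 163 and 15 UMIs, and 2.98 (1.55 to 6.29) at 2% or more, on 60 and 11 UMIs. The highest group was ASO-L1 below 2% at 1.43 CPM, and next came SO-L1 below 2% at 0.254 and ASO-L1 at 2% or more at 0.169, whose intervals overlapped. With the cells thinned to 8000 UMIs a SNAI2 UMI was found in 0.538% of ASO-L1 and 0.119% of SO-L1 cells. The call was lost under 1 of 11 alternatives below 2% and under 2 of 11 at 2% or more.

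TWIST1 (ENSG00000122691, chr7:19020991-19117672, minus strand) differed from SNAI1 in that it was also high in the SO-L1 cells of low mitochondrial share. It stood at 21.9 CPM in ASO-L1 and 7.29 in SO-L1 (ratio 3.0, 2.86 to 3.16). Below 2% the levels were 48.7 in ASO-L1 and 21.6 in SO-L1 (2.25-fold), and at 2% or more they were 13.3 and 2.93 (4.53-fold). All 4 groups were separated by their intervals, with SO-L1 below 2% above ASO-L1 at 2% or more. A TWIST1 UMI was present in 11.5% of thinned ASO-L1 cells (28.7% unthinned) and 4.51% of thinned SO-L1 cells (11.9% unthinned). In SO-L1 barcodes with under 1000 genes TWIST1 stood at 20.7 CPM on 97 UMIs, and 94 of these UMIs lay in the 5032 barcodes that were kept cells of ASO-L1. In the other 1013 it had 3 UMIs.

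ZEB1 (ENSG00000148516, chr10:31318495-31529814, plus strand) and ZEB2 (ENSG00000169554, chr2:144364364-144524583, minus strand) are known targets of the miR-200 family, small RNAs of epithelial cells that silence both messages through repeated sites in their 3′ untranslated regions. The mature miRNAs, from RefSeq (GRCh38.p14), are shown with the seed (bases 2 to 8) in capitals because the seed sorts them into the AAUACUG group of miR-200b-3p, miR-200c-3p and miR-429 and the AACACUG group of miR-200a-3p and miR-141-3p.
miR-200b-3p: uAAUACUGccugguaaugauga
miR-200c-3p: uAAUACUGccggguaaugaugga
miR-429: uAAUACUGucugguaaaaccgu
miR-200a-3p: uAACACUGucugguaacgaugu
miR-141-3p: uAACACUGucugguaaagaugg
The matches to these seeds, CAGTATT and CAGTGTT, were counted on the transcript strand of the longest annotated 3′ untranslated region (GENCODE 29, GRCh38). ZEB1 had 6 and 3, and ZEB2 had 5 and 4. SNAI2 had 1 match and the other 5 genes had 0, while 28.2% of 19093 genes had at least 1 match and 0.0314% had 9 or more. One site of each seed group in ZEB1 and ZEB2 is shown, with the seed match in capitals.
ZEB1, chr10:31527619-31527640, plus strand: ttgttttatcttatCAGTATTa
ZEB1, chr10:31528032-31528053, plus strand: aaaatcatcagaatCAGTGTTt
ZEB2, chr2:144389052-144389073, minus strand: gcactaccatacatCAGTATTt
ZEB2, chr2:144389236-144389257, minus strand: gcaaaaattttgtaCAGTGTTa
The matches describe sequence only. The 3′ assay does not count mature miRNAs, but it does count MIR200CHG, the host transcript of miR-200c and miR-141, which stood at 2.57 CPM in ASO-L1 and 3.07 in SO-L1 cells (ratio 0.834, 0.762 to 0.914). Below 2% the MIR200CHG ratio was 0.632 (0.543 to 0.735), and at 2% or more it was 0.965 (0.861 to 1.08).

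ZEB1 had 3.62 CPM in ASO-L1 and 1.09 in SO-L1 cells (ratio 3.33, 2.93 to 3.79). Its ratio was 4.11 below 2%, from 8.14 in ASO-L1 and 1.98 in SO-L1, and 2.66 at 2% or more, from 2.17 and 0.817. ASO-L1 at 2% or more and SO-L1 below 2% had overlapping intervals. ZEB2 had 4.49 CPM in ASO-L1 and 2.45 in SO-L1 cells (ratio 1.83, 1.68 to 2.01). Its ratio was 3.66 below 2%, from 7.69 in ASO-L1 and 2.10 in SO-L1, but 1.35 (1.22 to 1.51) at 2% or more, from 3.46 and 2.55, which was not called except under 1 of 11 alternatives. In SO-L1 the ZEB2 level did not differ between the classes beyond counting error (ratio 0.822, 0.670 to 1.003), and the higher of them was the class at 2% or more. A ZEB1 UMI was found in 2.64% of thinned ASO-L1 and 0.899% of thinned SO-L1 cells, and a ZEB2 UMI in 3.11% and 1.81%.

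The antisense transcript ZEB1-AS1, which overlaps the start of ZEB1 on the opposite strand, was also higher: 1.62 CPM in ASO-L1 cells and 0.579 in SO-L1 cells, on 760 and 147 UMIs. ZEB2-AS1 had 12 and 2 UMIs. Annotated transcripts on the opposite strand also overlap CDH1, CDH2, TWIST1 and ZEB2. The labels and headers do not state whether strand was used in counting, so an exchange of reads between such pairs cannot be told apart from the genes' own.

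**Figure D2:**
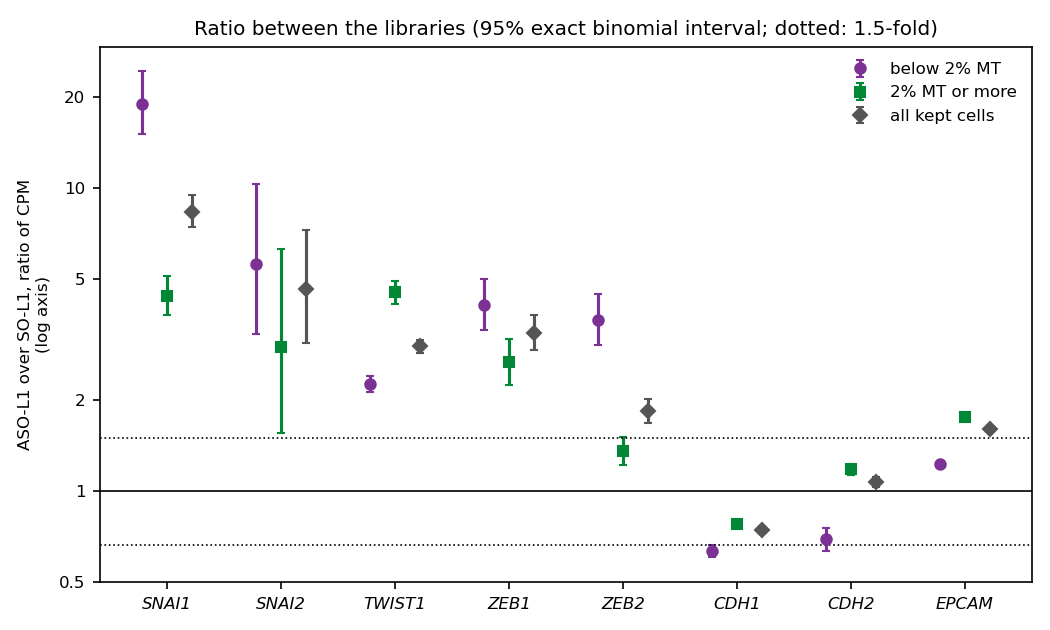
Ratio of levels, ASO-L1 over SO-L1, on a log axis with 95% exact binomial intervals, for cells below 2%, cells at 2% or more and all kept cells; the dotted lines mark 1.5-fold either way. SNAI1 spans 19.0 below 2% and 4.4 at 2% or more, and CDH2 lies on opposite sides of 1 in the classes.

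CDH1 (ENSG00000039068, chr16:68737225-68835548, plus strand), the known target of these repressors, was lower in ASO-L1 in both classes. It stood at 51.4 CPM in ASO-L1 and 68.8 in SO-L1 cells (ratio 0.747, 0.732 to 0.762), short of a 1.5-fold difference. Below 2% it was called lower, at 36.5 in ASO-L1 against 57.6 in SO-L1 (ratio 0.633, 0.605 to 0.663), where 24.9% of all genes were called lower. At 2% or more it was 56.2 in ASO-L1 and 72.2 in SO-L1 (ratio 0.778, 0.761 to 0.795). SO-L1 below 2% and ASO-L1 at 2% or more had overlapping intervals, and ASO-L1 below 2% was the lowest of the 4 groups. CDH1 was still broadly detected there: a UMI was present in 57.9% of ASO-L1 cells below 2% unthinned and in 23.8% after thinning, against 66.6% and 35.1% of SO-L1 cells below 2%.

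CDH2 (ENSG00000170558, chr18:27950966-28177446, minus strand) did not mirror CDH1. Over kept cells it stood at 16.9 CPM in ASO-L1 and 15.8 in SO-L1 (ratio 1.07, 1.03 to 1.11). Below 2% it was lower in ASO-L1, at 10.1 against 14.6 in SO-L1 (ratio 0.694, 0.634 to 0.758), and at 2% or more it was higher, at 19.0 against 16.1 (ratio 1.18, 1.13 to 1.23). Neither ratio reached 1.5-fold, and with the stricter cell filter the ratio over kept cells was 0.99. Thus below 2%, where all 5 repressors were called higher, both cadherin ratios lay below 1. A CDH2 UMI was present in 10.5% of thinned ASO-L1 and 10.4% of thinned SO-L1 cells.

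EPCAM (ENSG00000119888, chr2:47345158-47387601, plus strand) was the most widely detected of the 8 genes, present in 86.6% of thinned ASO-L1 and 77.1% of thinned SO-L1 cells. It was higher in ASO-L1, at 343 CPM against 215 (ratio 1.60, 1.58 to 1.61). The ratio was 1.76 (1.74 to 1.78) at 2% or more, and 1.23 (1.21 to 1.25) below 2%, which was not called. The ASO-L1 classes, at 339.9 below 2% and 344.5 at 2% or more, differed by a ratio of 0.987 (0.975 to 0.998), and both were above SO-L1 at 276 below 2% and 196 at 2% or more. So 5 of the 8 genes were called higher and 1 lower below 2%, where 23.1% and 24.9% of all genes were, and 5 higher and 0 lower at 2% or more, where 12.7% and 16.1% were.

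More of the genes were called between the mitochondrial classes in ASO-L1 than in SO-L1. In ASO-L1 cells below 2%, relative to those at 2% or more, SNAI1 was 4.98-fold, SNAI2 8.46-fold, TWIST1 3.66-fold, ZEB1 3.75-fold and ZEB2 2.22-fold higher, and CDH1 (0.650) and CDH2 (0.532) were lower. In SO-L1 cells TWIST1 (7.37) and ZEB1 (2.42) were called higher in the low class, SNAI1 and ZEB2 were not called, SNAI2 had 26 UMIs in all and no call was made, and CDH1 (0.798) and CDH2 (0.906) did not reach 1.5-fold. The counts were thus 5 higher and 2 lower of 8 in ASO-L1, where 28.3% and 12.2% of all genes were called, and 2 higher and 0 lower of 7 in SO-L1, where 21.1% and 6.23% were. The difference between the libraries in these ratios was not tested. CDH1 in ASO-L1 fell short of 1.5-fold under 4 of 11 alternatives, with ratios up to 0.729.

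Finer bins of mitochondrial share showed where each gene was highest. SNAI1 in ASO-L1 was 19.5 CPM in cells with under 0.25% mitochondrial UMIs, 33.5 at 0.25 to 0.5%, 55.6 at 0.5 to 1% and 45.6 at 1 to 2%, then 15.0 at 2 to 4% and 2.88 at 8 to 10%. The SNAI1 intervals at 0.5 to 1% and at 1 to 2% overlapped. The 249 cells at 0.5 to 1% had a median of 13229 non-mitochondrial UMIs, against 52710 in the cells under 0.25%, and the part of depth in this peak was not tested. In SO-L1 the 119 cells at 1 to 2% held the highest ZEB1, ZEB2 and SNAI1, at 13.0 CPM (20 UMIs), 11.7 (18 UMIs) and 9.77 (15 UMIs). These 119 cells had a median of 5634 UMIs, and 6 of them were shallow copies, without which the 3 levels were 13.1, 11.8 and 9.84. The SO-L1 intervals at 1 to 2% overlapped those at 4 to 6% for ZEB2 (8.72) and at 2 to 4% for SNAI1 (5.14). CDH1 in ASO-L1 was lowest under 0.25% and at 0.25 to 0.5%, at 35.9 and 36.0. It stood at 46.9 at 1 to 2% and 40.3 at 2 to 4%. The highest CDH1 level in ASO-L1 was at 10 to 20%, at 75.6, where SO-L1 had 73.0. CDH2 was highest at 4 to 6% in both libraries, at 30.6 in ASO-L1 and 28.2 in SO-L1, where SO-L1 had a similar 27.0 at 2 to 4%.

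**Figure D3:**
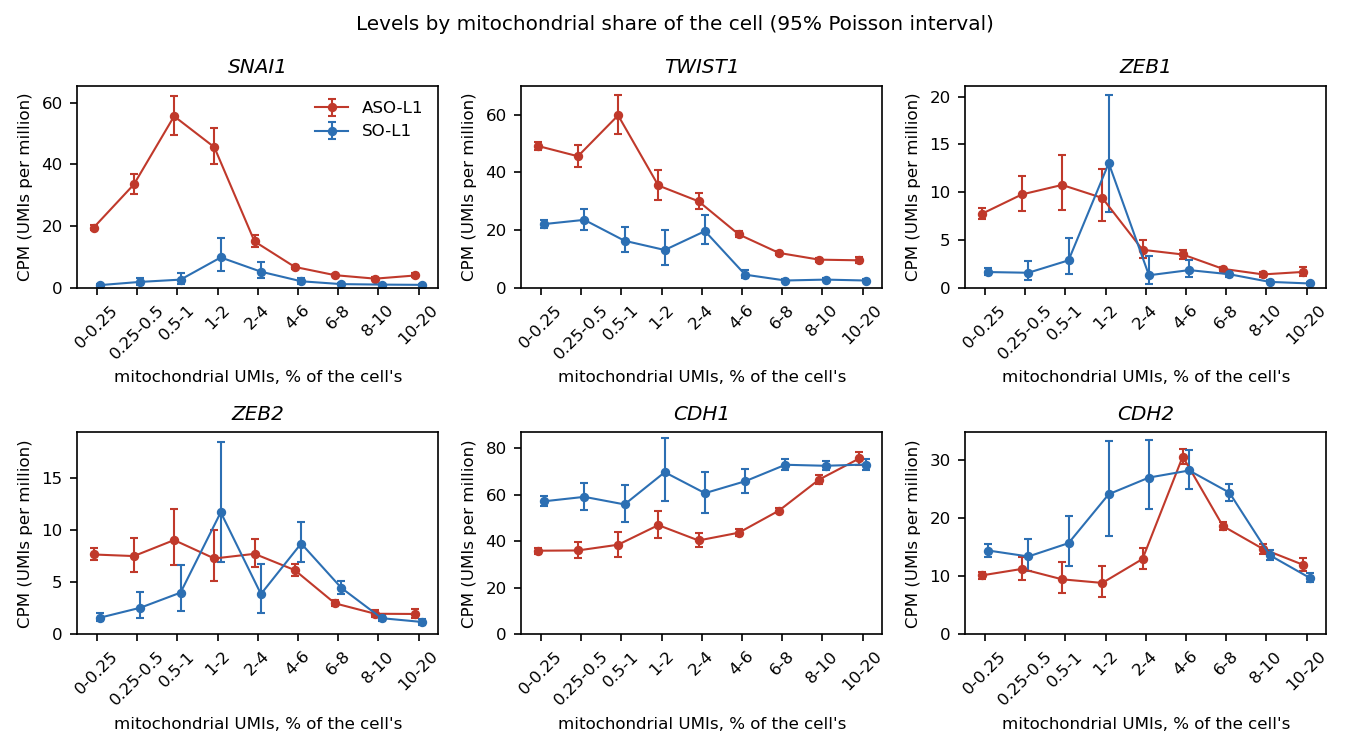
Levels of 6 genes in CPM by the mitochondrial share of the cell, in 9 bins, with 95% Poisson intervals. SNAI1 in ASO-L1 peaks at 55.6 in the bin from 0.5 to 1%, CDH1 in ASO-L1 reaches 75.6 in the last bin, next to 73.0 in SO-L1, and CDH2 is highest at 4 to 6% in both libraries.

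Cells with PAX6, a neural progenitor transcription factor, had higher CDH2, ZEB1 and ZEB2 at 2% or more, while CDH1 and EPCAM were not called there. A PAX6 UMI was present in 766 ASO-L1 and 324 SO-L1 cells, mostly at 2% or more (627 and 302). There CDH2 stood at 55.8 CPM in PAX6 cells of ASO-L1 against 14.6 in the cells without (ratio 3.81, 3.62 to 4.01), and at 66.6 against 12.1 in SO-L1 (ratio 5.49, 5.09 to 5.93). ZEB2 was 2.38-fold higher in ASO-L1 (7.18 against 3.01) and 8.90-fold higher in SO-L1 (14.4 against 1.62). ZEB1 was 1.54-fold and 3.71-fold higher in ASO-L1 and SO-L1, the first lost when each cell weighed the same and the second when cells were thinned. Both were also lost without the 10 cells of each group with most ZEB1 UMIs (1.11 and 1.12). TWIST1 was lower in both libraries (0.645 and 0.508), calls lost under 1 and 3 of 11 alternatives, and SNAI1 was not called. After thinning, a CDH2 UMI was present in 29.7% of PAX6 cells and 9.88% of the rest in ASO-L1, and in 36.9% and 8.65% in SO-L1 (68.7% and 34.5%, and 69.5% and 27.4%, unthinned). CDH1 was at 0.781 and 0.868 of its level in the other cells and EPCAM at 0.990 and 0.878.

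Below 2%, PAX6 cells were fewer, 139 in ASO-L1 and 22 in SO-L1. CDH2 was 2.67-fold higher in the 22 SO-L1 cells (29 UMIs) and 1.48-fold, not called, in the ASO-L1 cells. ZEB2 was 2.06-fold higher in ASO-L1, a ratio of 1.25 once cells with CER1 or IL24 UMIs were set aside and 1.07 without the 10 cells with most ZEB2 UMIs. CDH1 was lower in these ASO-L1 cells (0.629, 0.542 to 0.726), a call lost under 4 of 10 alternatives. In all, PAX6 cells gave 8 member values called higher and 3 lower. Of all genes, 1.81% were called higher and 12.6% lower in ASO-L1 below 2%, and 1.52% and 5.74% in ASO-L1 at 2% or more. In SO-L1 the shares were 2.81% and 3.28% below 2%, and 2.81% and 5.03% at 2% or more. PAX6 cells of ASO-L1 below 2% had a median of 58238 non-mitochondrial UMIs against 44199 in the rest. Their CDH1 call was lost when cells were thinned and when PAX6 was read after thinning, whereas their ZEB2 call was kept. The part of depth itself was not tested.

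Cells with CER1, a secreted Nodal, BMP and WNT antagonist of anterior endoderm, had TWIST1 and ZEB2 as the highest ratios in ASO-L1 at 2% or more, and other orders elsewhere. There were 3150 such cells in ASO-L1 and 567 in SO-L1. At 2% or more in ASO-L1 (2037 cells), TWIST1 stood at 25.5 CPM against 6.66 in the rest (ratio 3.83, 3.61 to 4.08), ZEB2 was 2.80-fold higher, ZEB1 2.43-fold and SNAI1 1.99-fold, and CDH1 was lower at 41.6 against 64.0 (ratio 0.650, 0.630 to 0.671). SNAI2 was called higher on 29 and 31 UMIs (1.73-fold), a call lost under 8 of 11 alternatives, 1 of which turned it to 0.488. The ZEB1 and SNAI1 calls were lost when each cell weighed the same (1.33 and 1.20). CDH2 was close to level (1.15), and EPCAM was 1.16-fold higher. The CDH1 call was lost when cells were thinned. In that group 9.45% of all genes were called higher and 13.2% lower, and CER1 cells had a median of 55268 UMIs against 50365.

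In SO-L1 at 2% or more, the 374 CER1 cells had ZEB2 at 8.05 against 2.05 (ratio 3.93, 3.20 to 4.81), CDH2 at 30.2 against 14.8 (2.04-fold) and TWIST1 at 5.00 against 2.74 (1.82-fold), with 2.34% of all genes called higher and 1.88% lower, while CDH1 was at 0.941 of the rest. The TWIST1 call was lost when each cell weighed the same and turned to 0.891 without the 10 cells with most of its UMIs, and ZEB2 without its 10 was 1.90-fold. Below 2% the ASO-L1 CER1 cells had TWIST1 at 63.3 against 32.1 (1.97-fold) and SNAI2 lower (0.514, lost when cells were thinned), with 2.03% of all genes called higher and 17.2% lower. A TWIST1 UMI was present in 27.9% of CER1 cells and 17.3% of the rest there after thinning. CDH1 there was at 0.703, not called. These ASO-L1 CER1 cells had a median of 52865 non-mitochondrial UMIs against 37936 in the rest, and the part of depth was not tested. The 193 SO-L1 CER1 cells below 2% were called for ZEB2 only (1.77-fold on 25 UMIs), a call lost under 4 of 11 alternatives and turned to 0.119 without the 10 cells with most ZEB2 UMIs, where 2.76% and 3.17% of all genes were called higher and lower.

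Cells with IL24, a secreted cytokine of the IL-10 family, held the highest SNAI1 and ZEB1 of the marker groups. Of 1025 such cells in ASO-L1, 684 were below 2%, and SO-L1 had 68, of which 56 were below 2% and 12, too few to report, at 2% or more. In ASO-L1 below 2%, SNAI1 stood at 44.3 CPM in IL24 cells against 14 in the rest (ratio 3.16, 2.93 to 3.42). ZEB1 stood at 15.5 against 4.65 (ratio 3.33, 2.91 to 3.81). TWIST1 (1.57), ZEB2 (1.63) and SNAI2 (1.54) were higher by less, and the SNAI2 call was lost under 4 of 11 alternatives and the ZEB2 call without the 10 cells with most of its UMIs (1.46). Both cadherins were lower: CDH1 at 21.9 against 43.5 (ratio 0.504, 0.466 to 0.545) and CDH2 at 4.29 against 12.9 (ratio 0.333, 0.279 to 0.394). EPCAM was at 271 against 373 (ratio 0.726). After thinning, a SNAI1 UMI was present in 27.5% of IL24 cells and 12.1% of the rest, and a CDH1 UMI in 15.9% and 27.1%. In this group 10.9% of all genes were called higher and 27.6% lower. These IL24 cells had a median of 50441.5 non-mitochondrial UMIs against 42701 in the rest, and the part of depth was not tested.

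The 341 IL24 cells of ASO-L1 at 2% or more had the same 5 repressors called higher, 2.07-fold for ZEB2 to 3.46-fold for SNAI2 (12 UMIs), where 11.5% of all genes were and 4.72% were lower. The SNAI2 call was lost under 2 of 11 alternatives and the ZEB2 call under 1, and without the 10 cells with most UMIs of the gene ZEB2 was 1.36 and SNAI2, on too few UMIs to call, 0.397. SNAI1 stood at 13.9 against 4.11 and TWIST1 at 34.4 against 11.8. CDH2 was lower (0.626), a call lost under 4 of 11 alternatives, and CDH1 was at 0.777. In the 56 SO-L1 cells below 2%, TWIST1 was 2.89-fold higher (88 UMIs), ZEB1 3.25-fold (9 UMIs) and ZEB2 6.63-fold (18 UMIs), where 16.4% of all genes were called higher and 7.16% lower, but CDH1 stood at 73.2 against 57.2 (ratio 1.28, 1.05 to 1.55). The ZEB1 call was lost under 2 of 11 alternatives and the ZEB2 call under 1, and without the 10 cells with most TWIST1 UMIs TWIST1 was 0.974. Depth differed here too. The median was 61689 non-mitochondrial UMIs in IL24 cells of ASO-L1 at 2% or more, against 51478 in the rest. In SO-L1 below 2% it was 25245.5 against 33839. The marker groups overlap: in ASO-L1 571 cells held both CER1 and IL24 UMIs, 18.1% of CER1 cells and 55.7% of IL24 cells, and 362 held both PAX6 and CER1. In SO-L1 these overlaps were 16 and 54 cells.

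**Figure D4:**
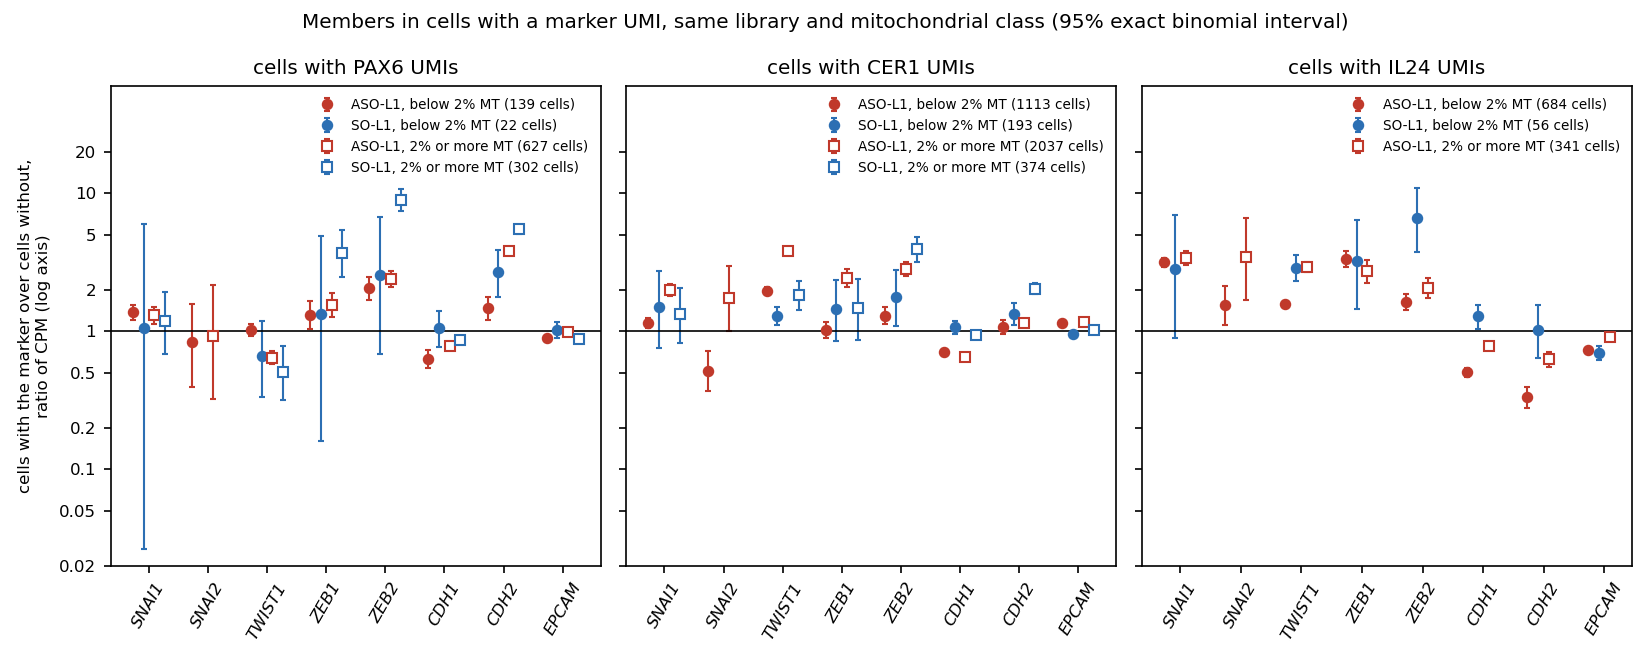
Ratio of each gene's level in cells with UMIs of PAX6, CER1 or IL24 over cells of the same library and mitochondrial class without it, on a log axis with 95% exact binomial intervals; genes with under 50 UMIs, or with 0 UMIs in either group, are not drawn. CDH2 and ZEB2 are high in PAX6 cells at 2% or more (3.81 and 5.49 for CDH2), and CDH1 (0.504) and CDH2 (0.333) are low in ASO-L1 IL24 cells below 2%.

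The members were then set against each other in the same cells, all thinned to 8000 UMIs so that depth did not choose the groups. Cells without a UMI of any of the 5 repressor genes were fewer in ASO-L1: 59.0% of ASO-L1 cells below 2% had none, against 83.7% of SO-L1 cells below 2%, and 86.0% of ASO-L1 cells at 2% or more had none, against 95.3% of SO-L1 cells at 2% or more. Holding several was rare even in ASO-L1 below 2%, where 8.23% of cells had exactly 2 and 1.07% (24 cells) had 3 or more. In those ASO-L1 cells CDH1 stood at 42.4, 36.0, 26.5 and 20.8 CPM with 0, 1, 2 and 3 or more repressor genes detected, and EPCAM at 353, 298, 237 and 167. CDH2 stood at 12.8, 9.0 and 8.15 with 0, 1 and 2, and had no UMI in the 24 cells with 3 or more (interval up to 19.2). The CDH1 interval with 0 detected (38.5 to 46.5) overlapped that with 1 (31.2 to 41.3) but not that with 2 (18.8 to 36.2), and CDH1 with 3 or more rested on 4 UMIs. The EPCAM intervals were separate for 0, 1 and 2, and the last overlapped that for 3 or more, while the CDH2 intervals overlapped. POU5F1, the pluripotency factor, stood at 697, 560, 379 and 380 and VIM, a mesenchymal filament gene, at 842, 1014, 1109 and 604. The part of cell type in these levels was not tested.

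The other groups did not share this pattern for every gene. In ASO-L1 at 2% or more, CDH1 stood at 57.2, 46.2 and 30.5 with 0, 1 and 2 repressor genes detected, while EPCAM was level at 348, 357 and 352. In SO-L1 at 2% or more CDH1 was 73.7 and 73.1 with 0 and 1 detected, and CDH2 was 15.4 and 58.5. In SO-L1 below 2% CDH1 was 59.7 and 65.2, with overlapping intervals.

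**Figure D5:**
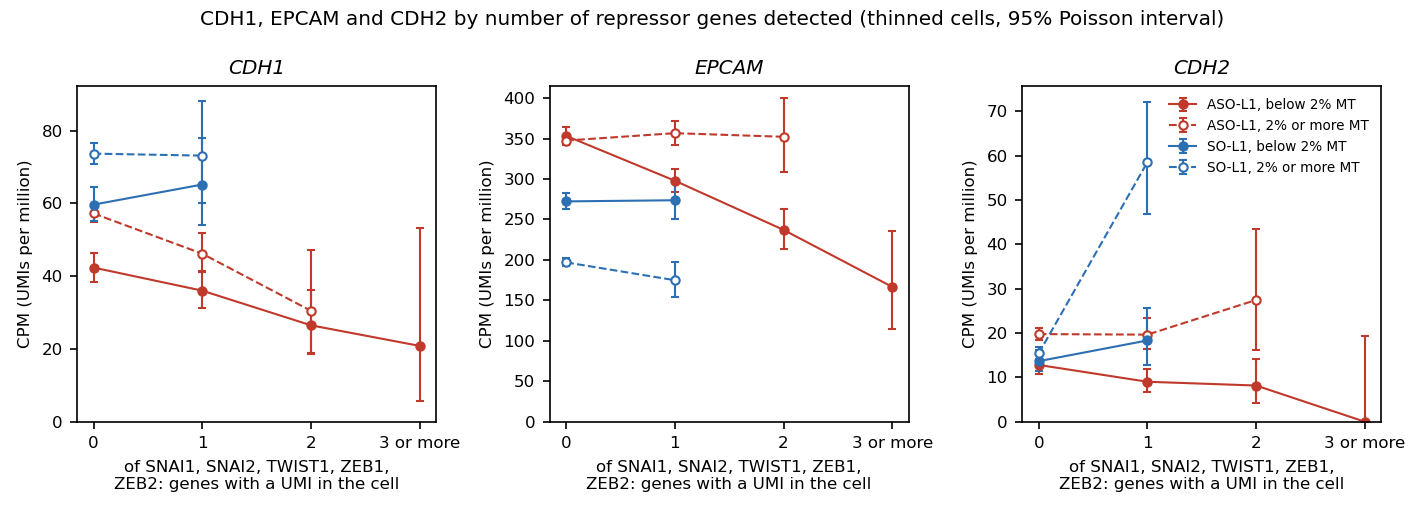
Levels of CDH1, EPCAM and CDH2 in CPM in cells thinned to 8000 UMIs, by how many of SNAI1, SNAI2, TWIST1, ZEB1 and ZEB2 had a UMI in the cell, with 95% Poisson intervals; groups of under 20 cells are left out. In ASO-L1 cells below 2% with 0 to 3 or more genes, CDH1 stands at 42.4, 36.0, 26.5 and 20.8 and EPCAM at 353, 298, 237 and 167. In SO-L1 cells at 2% or more CDH2 stands at 58.5 with 1 gene and 15.4 with none.

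Gene by gene, the repressors went with different cadherins, and each link was called in some groups of cells only. ASO-L1 cells below 2% with a SNAI1 UMI (373 cells) had CDH1 at 26.5 against 41.3 in cells without (ratio 0.641, 0.501 to 0.812), EPCAM at 197 against 350 (0.564) and CDH2 at 0.592 of the others, with ZEB1 1.74-fold higher, where 20.5% of all genes were called lower and 11.7% higher. The 37 cells with a SNAI2 UMI had EPCAM at 118 against 328 (ratio 0.361, 0.251 to 0.503) and SNAI1 3.36-fold higher, where 6.02% of all genes were called lower and 11% higher. ZEB2 went with CDH2 at 2% or more. In SO-L1 the 74 cells there with a ZEB2 UMI had CDH2 at 125 against 15.7 (ratio 7.98, 6.17 to 10.2). Of all genes 5.06% were called higher in that group. In ASO-L1 at 2% or more the 149 such cells had 60.4 against 18.9 (ratio 3.20, 2.48 to 4.07), where 4.45% were. CDH1 was at 0.569 in those 149 cells, where 2.13% were called lower. Below 2%, CDH2 was not called in ZEB2 cells of either library, nor was ZEB2 in CDH2 cells. Read from CDH2, ZEB2 was 12.1-fold higher in the 461 SO-L1 cells with a CDH2 UMI and 2.93-fold higher in the 748 ASO-L1 cells at 2% or more, where 2.35% and 1.79% of all genes were called higher. The 29 SO-L1 cells with a ZEB1 UMI at 2% or more had CDH2 6.37-fold (25 UMIs) and ZEB2 13.7-fold (9 UMIs) higher, beside 6.15% of all genes. TWIST1 went the other way, with CDH2 at 0.526 in the 485 ASO-L1 cells with a TWIST1 UMI at 2% or more, where 6.35% of all genes were called lower. Over these groups 126 member values had enough UMIs. Of them 24 were called higher and 13 lower, against 6.29% and 3.93% of all gene values over the same groups. Pairs of members other than EPCAM were read in both directions, so 1 association can count more than once. Other genes were read in 1 direction only, so the shares are not strictly alike. Without the 10 cells of each group with most UMIs of a gene, the counts were 5 and 46. That setting takes most positive cells from a small group by construction. The shift therefore does not show how far a few cells carry the calls.

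Only CDH1, CDH2 and EPCAM had a UMI in at least 5% of thinned cells of every library and class, so only for them were the 10066 genes equally well detected ranked by likeness across cells. No gene reached a Pearson r of 0.1 in all 4 combinations of library and class with any of them, and none is named. Between the 3 genes themselves r lay between -0.0613 and 0.0831, which in sparse counts is no finding.

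The wider programme was read from lists of related genes, counted as higher or lower where the ratio was at least 1.5-fold, whatever the interval. Over all genes with at least 50 UMIs in kept cells, 16.8% were higher in ASO-L1 and 18.8% lower, with a median log2 ratio of -0.04. Of 25 measured mesenchymal genes, 15 were higher and 0 lower (median 0.96). VIM, the intermediate filament of mesenchymal cells, stood at 729.5 CPM in ASO-L1 against 211 in SO-L1 (3.46-fold), and TAGLN, an actin-binding protein, at 69.9 against 11.8 (5.92-fold). CALD1, an actin regulator, had a ratio of 1.20. Below 2% the list had 16 higher and 2 lower, where 23.8% and 25.4% of all genes were higher and lower, and at 2% or more 15 and 0, where 13.3% and 16.6% were. Of 12 other transcription factors of the transition, 6 were higher and 1 lower (median 0.49), but among the 8 with at least 200 UMIs 3 were higher and 1 lower (median -0.06). Below 2%, 6 were higher and 4 lower of 11, and 3 and 4 of the 8 with at least 200 UMIs (median -0.36). FOXC2 had 148 UMIs in ASO-L1 and 5 in SO-L1 (16.0-fold, 6.69 to 49.9) and GSC, an organiser homeobox gene, 312 and 14 (12.0-fold), whereas the abundant TCF4 (0.757) and TCF3 (0.973) were not higher.

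Other cadherins leaned the other way, with 1 higher and 6 lower of 16 measured (median -0.44). CDH13 stood at 40.6 in ASO-L1 against 80.1 in SO-L1 (0.507), CDH9 at 0.408 and CDH15 at 0.339, but CDH3, which encodes P-cadherin, was close to level (1.02). Of 11 catenins and cadherin partners 0 were higher and 2 lower, where 16.8% and 18.8% of all genes were. The 2 were the neural forms CTNND2 (0.504) and CTNNA2 (0.547). CTNNA1, which encodes the catenin that ties cadherins to actin, was level at 191 in both libraries, and CTNNB1 was at 1.27. Of 11 epithelial regulators 1 was higher and 3 lower (median -0.26). KLF4, also a factor of naive pluripotency, was 3.83-fold higher, GRHL2, a driver of epithelial genes, was at 0.537, TP63 at 0.437, and the splicing factor ESRP1 at 0.840. Below 2% this list had 6 of 11 lower and 1 higher, beside 25.4% and 23.8% of all genes.

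Of 29 epithelial junction genes, 5 were higher and 1 lower, with a median of -0.05 near that of all genes. Below 2%, 8 were higher and 7 lower, beside 23.8% and 25.4% of all genes. CLDN4 was 3.24-fold higher and TJP3 at 0.466, and the most abundant, CD24 (0.851) and CLDN6 (0.878), were near level. Genes of the machinery that acts with or on the repressors were read over kept cells, where 16.8% of all genes were higher and 18.8% lower. With 7 to 13 genes per list, the counts below cannot be told apart from these shares. Of 13 corepressors 1 was higher (AJUBA, 2.41-fold) and 1 lower (EZH2, the PRC2 methyltransferase, 0.652), with CTBP2 at 0.699 and HDAC2 at 1.03. Below 2%, 2 corepressors were higher and 4 lower (median -0.46), beside 23.8% and 25.4% of all genes. There EZH2 was at 0.433 and CTBP2 at 0.459. Of 10 genes for turnover of SNAI proteins 1 was higher (FBXL14, a ubiquitin ligase subunit, 2.42-fold) and 2 lower, GSK3B, which marks SNAI1 for degradation, among them (0.501), with PAK1 at 0.874 and CSNK1E at 1.18. Of 12 TGF-beta signalling genes 1 was higher (TGFB2, 1.88-fold) and 1 lower (TGFB3, 0.567), with SKIL at 0.918 and SMAD2 at 0.953. Of 7 genes for cadherin and EPCAM cleavage 1 was higher (NCSTN, 2.05-fold), with ADAM17 at 1.41 and ADAM10 at 1.003.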

How the data were processed

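The authors deposited raw UMI counts; the submitters' processing notes and the headers name Cell Ranger 7.1.0 and the hg38 build. Doublet removal is not stated there, and no doublet caller was run. Cells with at least 1000 genes and under 20% mitochondrial UMIs were kept and divided at 2%. Counts were summed per group of at least 20 cells and divided by the non-mitochondrial total; ratios carry exact conditional binomial (Clopper-Pearson) 95% intervals, levels Poisson intervals and shares Clopper-Pearson intervals, all for counting error only, since 1 library per group allows no test. A ratio against a count of 0 uses a floor of 3 counts per group. The shares of all genes called are over genes with at least 50 UMIs, as for the members; a minimum of 100, as first planned, moved them by at most 1.24 percentage points. Shares were taken after thinning each cell to 8000 UMIs. The interval code was tested on simulated data. Python 3.11.15 was used with numpy 2.4.6, scipy 1.17.1 and pandas 2.3.3. The genes, the mitochondrial split and the gene lists were chosen with earlier results of these data known. From each list the 2 genes with the largest absolute log2 ratio and the 2 with most UMIs are named, apart from some not reported here, and MIR200CHG, named besides, was chosen after its values were seen. All 150 list and 73 marker entries matched by symbol; SNAI1P1, meant to be checked, is not used here. The alternatives tried are those of the closing section.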

Additional observations from a re-analysis of the deposited data

Results flagged for a closer look

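Each result here is a ratio that lay on opposite sides of 1 in a pair of groups, both intervals excluding 1; none of these differences was tested, since each group is 1 library. The CDH2 ratio of ASO-L1 over SO-L1 was 0.694 (0.634 to 0.758) below 2% and 1.18 (1.13 to 1.23) at 2% or more. The EPCAM ratio of cells below 2% over those at 2% or more was 0.987 (0.975 to 0.998) in ASO-L1 and 1.41 (1.38 to 1.43) in SO-L1. The first of these turned to 1.06 when the total of all UMIs was used. The EPCAM ratio of CER1 cells over the rest below 2% was 1.14 (1.12 to 1.17) in ASO-L1 and 0.949 (0.904 to 0.995) in SO-L1. The CDH1 ratio of IL24 cells over the rest below 2% was 0.504 (0.466 to 0.545) in ASO-L1 and 1.28 (1.05 to 1.55) in SO-L1, where SO-L1 had 56 such cells.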

How the results depend on the processing

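No paired analysis was possible because each group is 1 library, and for the same reason none could be left out. Of 1920 member values recomputed under 16 alternatives, 1527 stayed inside the 95% interval of the reported value, 384 moved outside it and 9 called values changed side, counting those with at least 50 UMIs left and neither group at 0; for cells grouped by a member's own UMIs, scaling and thinning were not varied, as those cells already share 1 depth. Of the comparisons of libraries and classes, the count that changed by over 1.5 times was that of genes lower in ASO-L1 below 2% than at 2% or more, 2 as reported and 1 with the total of all UMIs, the stricter filter, thinned cells or equal weight per cell. Marker cells depended more on the setting, and the cause was not tested except where the group's size sets it. Thinning gave 0 lower values for PAX6 and for CER1 cells and 8 higher for IL24 cells; equal weight gave 5 higher for CER1 cells and turned SNAI2 in ASO-L1 CER1 cells at 2% or more to 0.488. A floor of 2 marker UMIs, or the marker read after thinning, gave 5 lower for IL24 cells; a floor of 5, added after seeing the data, gave 4 lower for CER1 and 5 lower for IL24 cells. Leaving out, in each group, the 10 cells with most UMIs of the gene takes most positive cells from a small group by construction. It gave 4 higher for PAX6, 5 lower for CER1, and 7 higher and 5 lower for IL24 cells, and 5 higher and 46 lower where cells were grouped by another member. It turned ZEB2 (0.119, below 2%) and TWIST1 (0.891, 2% or more) in SO-L1 CER1 cells, TWIST1 in SO-L1 IL24 cells below 2% (0.974), and, in ASO-L1 at 2% or more, ZEB2 in SNAI1 cells (0.394), TWIST1 (0.22) and CDH2 (0.288) in ZEB1 cells, and SNAI1 (0.403) and TWIST1 (0.911) in ZEB2 cells. Of the shares of cells, 0 members were 1.5-fold lower in ASO-L1 as reported, 1 over kept cells and 1 below 2% with at least 2 UMIs per cell, and 2 below 2% with cells thinned to 4000 UMIs. At 2-fold the list genes lower in ASO-L1 were 5 over kept cells, 20 below 2% and 2 at 2% or more. Those higher at 2% or more were 19, and each count was smaller than at 1.5-fold. Of all genes, 6.83% over kept cells, 13.8% below 2% and 5.18% at 2% or more were lower by 2-fold. At 2% or more, 5.74% of all genes were higher by 2-fold. SNAI2 and the smallest marker groups are limited by depth.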
